A study of Drosophila melanogaster with 4 samples.

Results

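The 10 genes described here set whether follicle cells divide or endocycle, and they were measured in control and tumor ovaries of Drosophila melanogaster. They are the cyclin genes CycA, CycB, CycB3, CycD and CycE, the kinase genes Cdk1 and Cdk2, and the regulators stg, fzr and dap. All 10 were found by symbol among the 17773 gene identifiers of each library, and 9 passed the filter on low counts and were tested. Cdk2 was listed at 0 in every library.

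Follicle cells are the somatic epithelium around each germline cyst. They first divide by mitosis and in mid-oogenesis switch to endocycles, in which the genome is copied without division. Notch signaling, started by Delta on the germline, drives this switch: it lowers transcription of stg and dap and raises that of fzr. The product of stg, a Cdc25 phosphatase, activates Cdk1 with its mitotic cyclins, whereas the product of fzr, a Cdh1-type activator of the anaphase-promoting complex, marks these cyclins for destruction.

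RNA came from adult females kept for 20 days at 29 °C. The control genotype was tj-GAL4 with tubulinGal80ts, and the tumor genotype carried in addition UAS-aPKCΔN and UAS-RasV12, so that driver and repressor were common to both. The tj-GAL4 driver acts in somatic cells of the ovary and not in the germline, and the Gal80 repressor is inactive at this temperature. Control tissue was dissected down to follicles before yolk uptake, tumors were not staged, and all tissue was digested with a Bacillus protease and passed through a filter that favors follicle epithelial cells. Each genotype had 2 libraries of 41248098 to 50971937 estimated counts, described as biological replicates with no statement of how they were kept apart, so p-values measure the spread between these samples.

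Some facts of the whole series bear on the values below. Both transgene-carried genes were higher in both tumor libraries (aPKC from 1910 and 2482 to 54944 and 73836 counts; Ras85D from 676 and 215 to 102550 and 109225). The follicle cell gene tj was present throughout, at 11159 to 21837 counts, but passed as lower, at -0.66 (edgeR adjusted p = 0.016). Of the 4 follicle cell markers the other 3 were higher: Fas3 by 1.41, eya by 0.82 and cas by 1.73 in log2. Their list summed to 871 and 999 CPM (counts scaled by TMM to a common library total) in control and 1385 and 1454 CPM in tumor. Germline markers, by contrast, were much lower in tumor: 10 of 11 fell, the summed level was 1059 and 1024 CPM in control and 197 and 205 CPM in tumor, and the germline gene vas went from 4342 and 3348 to 182 and 592 counts. By the locus sums defined below the germline fall was smaller, with a median log2 fold change of -1.10 in place of -4.61 (vas at -0.85 in place of -3.38), and again 10 of 11 genes fell. Yolk and eggshell markers went from 7437 and 3151 CPM to 303 and 279 CPM, with 8 of 12 tested genes lower. Yp1 stood at 33487 and 41661 counts against 173 and 446. On locus sums 11 of the 12 were lower, but the median log2 fold change was -3.02 in place of -6.16. Yp1 was at -3.10 in place of -6.97. Control libraries thus held yolk and eggshell RNA although control tissue was dissected down to follicles before yolk uptake. The summed level also differed between the control libraries, and the reason was not tested. Hemocyte markers went the other way, from 31.4 and 27.7 CPM to 438 and 697 CPM, with 6 of 6 higher, Hml among them (376 and 221 against 4765 and 3698 counts). Of 5 tested muscle markers 3 fell (212 and 399 CPM against 95.6 and 59.6 CPM), though Mhc, at 2451 and 5768 against 1761 and 759 counts, did not pass (edgeR adjusted p = 0.054). Heat shock and immediate early genes summed to 211 and 366 CPM in control and 4704 and 3800 CPM in tumor. Of 10 tested genes 6 were higher and 2 lower, and on locus sums 7 were higher and 1 lower. The immediate early genes went different ways in log2: kay rose by 0.43, sr fell by 1.73 and Hr38 did not pass.

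One property of the files sets how far a single gene can be read. For 99.3% of the annotated genes the sequence that reads were assigned to, called the target here, equals the gene span with introns plus 2000 bases on each side. Targets of neighboring genes therefore overlap, and reads in the overlap were divided between them by kallisto. Each gene was therefore also measured by its locus sum, the counts of every target that holds one of its exons. The locus sum includes the gene's own count and also the counts of its neighbors.

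The tumor libraries held fewer counts of the mitotic cyclin genes CycA and CycB and of the endocycle activator gene fzr, and fewer of CycE, while stg was not lower. Of the 9 tested genes 4 were lower in tumor and none was higher (edgeR's quasi-likelihood test, adjusted p under 0.05), where over all 9402 tested genes 21.2% were lower and 23.4% higher. None of the 9 was higher at an unadjusted p under 0.05 either. DESeq2 called 1 of them higher (stg) and 5 lower, where it called 25.8% and 24.7% of all genes, and limma-voom called none higher and 5 lower, beside 24.5% and 22.6% of all genes. Under scaling on ribosomal protein genes 2 were higher (stg and CycD) and 3 lower (CycA, CycB and fzr), beside 48.2% and 10% of all genes, and CycB3, CycE and dap turned to positive log2 fold changes without passing. On locus sums the same 4 were lower and none was higher, beside 28.3% and 29.2% of all genes. For CycA, CycB and fzr most of the locus sum is counts of neighbors. The median log2 fold change of the 9 genes was -0.52, beside 0.02 over all tested genes. On locus sums it was smaller, at -0.19 beside 0.003. In 8 of the 9 genes the CPM of the genotypes did not overlap, 6 with tumor below and 2 with tumor above, which is close to the 79.6% of all tested genes without overlap. These are bulk samples, so fewer cells of a type and less RNA per cell cannot be told apart. The part of follicle stage and of the germline and other marker differences in these values was not tested.

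**Figure D1:**
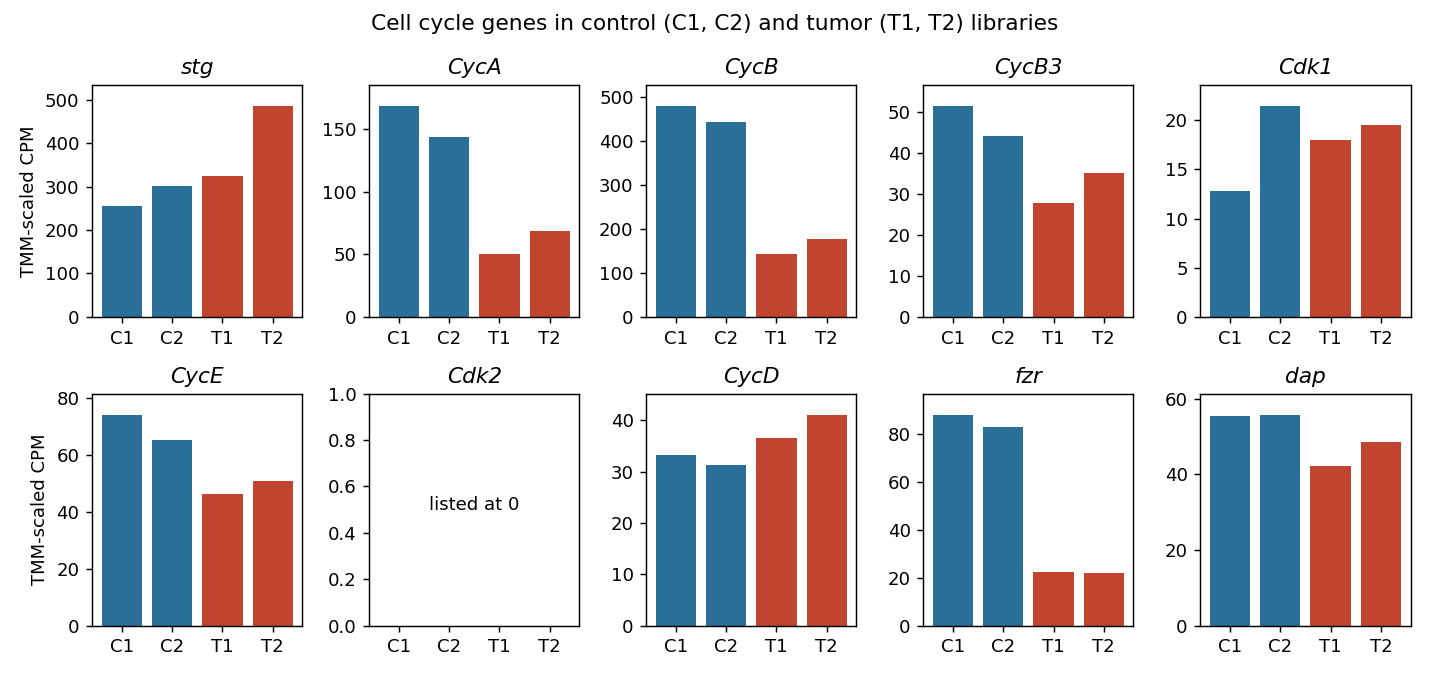
TMM-scaled CPM of each gene on its own target, as bars from 0 for control libraries 1 and 2 (C1, C2) and tumor libraries 1 and 2 (T1, T2), each panel with its own axis. CycA, CycB and fzr are lower in both tumor libraries, stg is above control in both with T2 highest, and Cdk2 is listed at 0.

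Of the 5 genes that drive entry into mitosis, CycA and CycB fell and the others did not pass the test. The phosphatase gene stg (FBgn0003525, chromosome 3R, 29251826 to 29255800, minus strand, in BDGP6.54) stood at 256 and 302 CPM in control and at 325 and 486 CPM in tumor. Both tumor libraries were above both control libraries, but tumor 2 was far above tumor 1, and the log2 fold change, 0.54 ± 0.23 (n = 2 per genotype; errors on log2 fold changes are SEs of the model fit), did not pass (edgeR adjusted p = 0.12). Without tumor 1 it was 0.79 and passed (edgeR adjusted p = 0.034), and without tumor 2 it was 0.22 (edgeR adjusted p = 0.31). DESeq2 called it at an adjusted p of 0.049. The stg target held 89.8% to 98.7% of its locus sum in every library, a share that itself depends on how reads were divided. Only 49.3% of the stg exon bases lie outside other targets. The target of SP1029, which holds 20.4% of them, had 1152 and 1114 counts in control against 373 and 267 in tumor. The stg locus sum was at 0.44 ± 0.19 on the same scale (edgeR adjusted p = 0.11).

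CycB (FBgn0000405, chromosome 2R, 22803521 to 22806948, minus strand), a partner of Cdk1 in mitosis, stood at 480 and 443 CPM in control and fell to 142 and 177 CPM in tumor. The genotypes lay well apart, at a log2 fold change (tumor over control) of -1.53 ± 0.14, or 2.89-fold lower (edgeR adjusted p = 0.0038). CycA (FBgn0000404, chromosome 3L, 11826719 to 11833578, minus strand), which acts in S phase and early mitosis, stood at 169 and 144 CPM against 50.5 and 68.9 CPM. It fell by 1.39 ± 0.19 on the log2 scale (edgeR adjusted p = 0.0079), or 2.62-fold lower. Both falls were smaller on locus sums, at -0.71 ± 0.08 for CycB (edgeR adjusted p = 0.0016) and -0.86 ± 0.14 for CycA (edgeR adjusted p = 0.0045).

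Neighbors make up more of the locus sum for these cyclins than for stg. No exon base of CycA lies outside other targets, and its own target held 41.6% to 42.1% of the locus sum in control and 27.7% to 29.97% in tumor. Of its neighbors, the target of CG32095 held 7821 and 8447 counts in control libraries against 4988 and 5579, and that of CG7264 held 1454 and 1324 against 1357 and 1649. Beside CycB lies blw, which encodes a subunit of mitochondrial ATP synthase and whose target held 53501 and 67354 counts in control against 44006 and 37693. It takes up most of the CycB locus sum, of which CycB itself was 22.2% to 24.3% in control and 11.4% to 15.1% in tumor. For CycB 49.5% of the exon bases lie in no other target.

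CycB3 (FBgn0015625, chromosome 3R, 24867934 to 24870816, minus strand), the third mitotic cyclin gene, stood at 51.5 and 44.2 CPM in control and 27.8 and 35.1 CPM in tumor. The libraries of the genotypes did not overlap, yet the log2 fold change of -0.61 ± 0.18 missed the threshold (edgeR adjusted p = 0.056). It passed under upper-quartile factors, DESeq2 and limma-voom, and its locus sum, which also holds the counts of CG3744, was at -0.19 ± 0.09 (edgeR adjusted p = 0.11). Cdk1 (FBgn0004106, chromosome 2L, 10384739 to 10386262, minus strand), the mitotic kinase gene, stood at 12.8 and 21.4 CPM in control and 18.0 and 19.6 CPM in tumor. Here the genotypes overlapped and the control libraries were farther apart than the tumor libraries (log2 fold change 0.13 ± 0.31, edgeR adjusted p = 0.75). All exons of Cdk1 lie within the targets of CG5096 and mRpS7, and its own target held 6.29% to 11.8% of the locus sum, so its level is poorly resolved.

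The endocycle activator gene fell furthest of the 9. This gene, fzr (FBgn0262699, chromosome X, 4667290 to 4679537, minus strand), was at 88.2 and 83.2 CPM in control and at 22.3 and 21.9 CPM in tumor. The replicates lay close together in both genotypes, and tumor was 3.88-fold lower, or -1.96 ± 0.11 in log2 (edgeR adjusted p = 0.0017). Its locus sum was at -1.03 ± 0.07 on the log2 scale (edgeR adjusted p = 4.4e-04), where the gene's own target made up 48.4% to 48.6% in control and 25.4% to 25.8% in tumor. Its neighbor CG3009, whose target holds 50.6% of the fzr exon bases, had 916 and 646 control counts against 437 and 333. The other neighbor, Pp2C1, had 2841 and 3675 against 2659 and 2572. Both neighbors held no more counts in tumor than in control. Whether the division of reads between these targets differed by genotype was not tested.

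**Figure D2:**
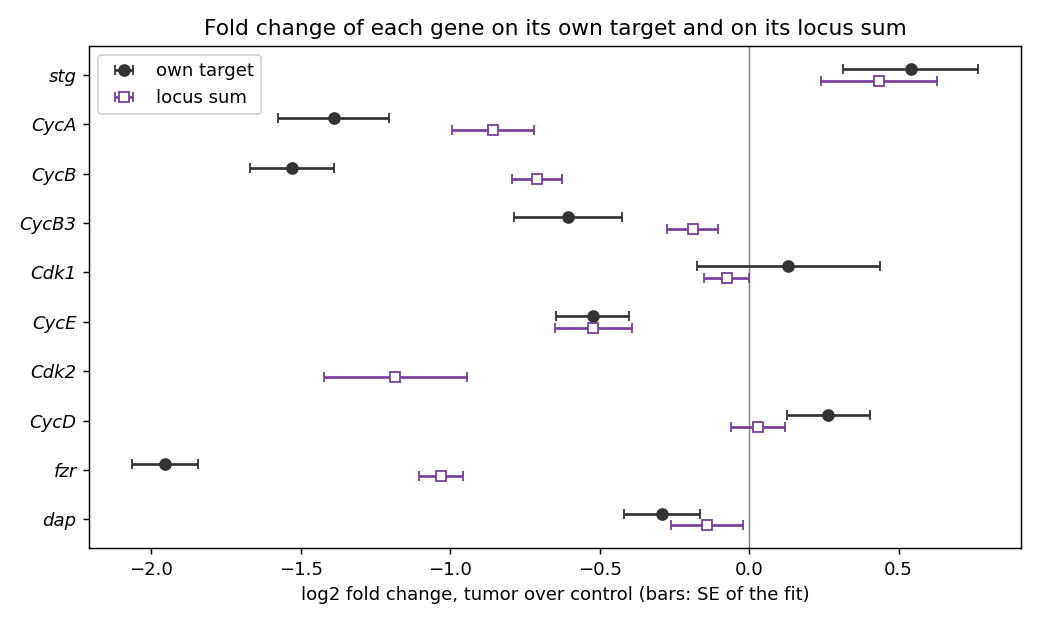
Log2 fold change, tumor over control, with fit SEs as bars, for each gene on its own target (filled circles) and on its locus sum (open squares), n = 2 libraries per genotype. The falls of CycA, CycB and fzr are smaller on locus sums, CycE is at -0.52 on both, and Cdk2 has a locus sum alone.

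Among the genes of G1 and S phase, CycE alone passed the test. CycE (FBgn0010382, chromosome 2L, 15727581 to 15748150, minus strand), whose product with Cdk2 starts DNA replication in both mitotic and endocycling cells, stood at 74.1 and 65.4 CPM in control and 46.4 and 50.7 CPM in tumor. Its log2 fold change of -0.52 ± 0.12 passed (edgeR adjusted p = 0.031). CycE is the best resolved of these genes, with 85.6% of its exon bases outside other targets and 99.7% to 100% of the locus sum on its own target. The CycE call ended without control 1 (edgeR adjusted p = 0.13), control 2 (0.065), tumor 1 (0.093) or tumor 2 (0.063), and on the TPM scale (limma adjusted p = 0.28 to 0.30), and the sign turned under scaling on ribosomal protein genes (0.10, edgeR adjusted p = 0.58).

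CycD (FBgn0010315, chromosome X, 15906822 to 15909676, minus strand), whose product works with Cdk4 in growth and G1, stood at 33.3 and 31.3 CPM in control and 36.6 and 41.1 CPM in tumor. Tumor was above control in both libraries, with a log2 fold change of 0.27 ± 0.14 that did not pass (edgeR adjusted p = 0.19). Its locus sum, most of which belongs to the dynamin gene shi, was at 0.03 ± 0.09 (edgeR adjusted p = 0.79). The gene dap (FBgn0010316, chromosome 2R, 9712321 to 9716256, plus strand), which encodes the inhibitor of the CycE and Cdk2 complex, stood at 55.5 and 55.7 CPM in control and 42.3 and 48.5 CPM in tumor. Its log2 fold change of -0.29 ± 0.13 did not pass (edgeR adjusted p = 0.13), and on the TPM scale, with 44.1 and 43.6 TPM against 38.2 and 46.9 TPM, the genotypes overlapped. The dap target held 82.5% to 96.9% of its locus sum.

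Cdk2 (FBgn0004107, chromosome 3R, 20735623 to 20738414, plus strand) had no count in any library, although the targets that hold its exons did. Its whole exon sequence lies within the target of CG17267, with 283 and 367 control counts against 129 and 173, and 82.5% of it within the target of mir-995, a microRNA gene inside the Cdk2 span, with 1135 and 1042 against 420 and 560. The Cdk2 locus sum was lower in tumor, at -1.18 ± 0.24 on the log2 scale (edgeR adjusted p = 0.0097). It cannot be read from the files how many of these counts came from Cdk2 transcripts, so its 0 is not a measured absence.

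**Figure D3:**
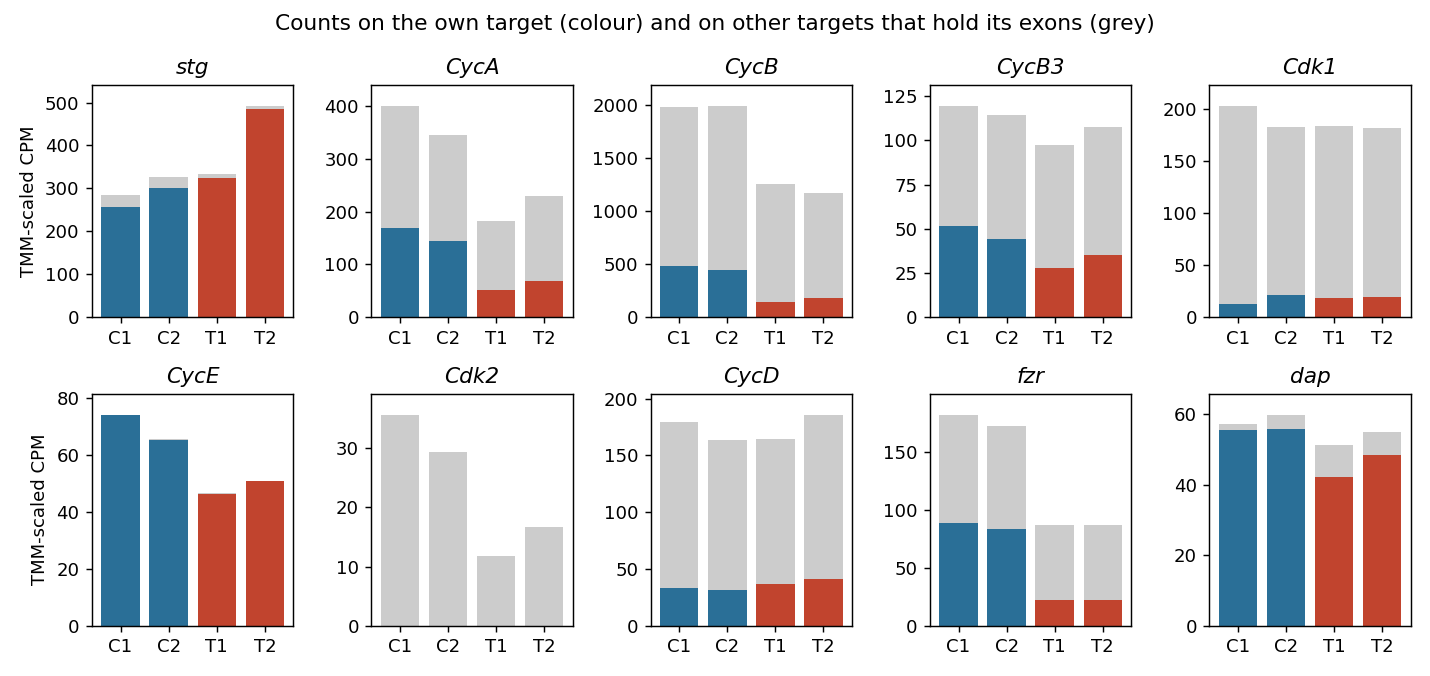
TMM-scaled CPM on the gene's own target (colored) and on other targets that hold its exons (grey), stacked from 0, per control (C1, C2) and tumor (T1, T2) library. The own target makes up nearly all of the locus sum for CycE, stg and dap, a minor part for CycB, CycD and Cdk1, and none for Cdk2.

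Levels of different genes were compared as CPM per kilobase of annotated exon, a scale on which the division of reads between targets still enters. In control CycB was highest at a mean of 151 per kilobase, followed by stg at 91.0, CycA at 53.6, fzr at 30.7 and dap at 21.99, each apart from the next in both libraries. CycB3 (16.6), Cdk1 (15.8), CycE (13.8) and CycD (13.2) followed with ranges that overlapped between neighbors. In tumor stg was highest at 132 per kilobase, above CycB at 52.4 and CycA at 20.4. The ranges of CycA, dap (18.0), Cdk1 (17.3) and CycD (15.8) overlapped from each to the next, as did those of CycB3 (10.9) and CycE (9.62). After the unresolved Cdk2, fzr was lowest at 7.92, so that it went from place 4 in control to place 9 in tumor.

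Ratios between 2 genes within a library do not depend on how libraries are scaled. In all 10 such ratios were computed after the values were seen and are described without a test. Counts of stg over counts of fzr were 2.90 and 3.63 in control and 14.6 and 22.1 in tumor. On locus sums the same ratio was 1.57 and 1.89 against 3.85 and 5.69, so the genotypes were apart on both measures. Counts of CycE over fzr went from 0.840 and 0.787 to 2.08 and 2.31, and on locus sums, by less, from 0.408 and 0.381 to 0.538 and 0.586. Counts of stg over CycB went from 0.533 and 0.682 to 2.29 and 2.74, and on locus sums from 0.144 and 0.163 to 0.266 and 0.419. Most of the CycB locus sum is counts of blw, so locus ratios with CycB are mainly ratios with blw. The mitotic cyclins moved less against fzr. CycB over fzr was 5.44 and 5.32 in control and 6.38 and 8.08 in tumor, and on locus sums 10.9 and 11.6 against 14.5 and 13.6. CycA over fzr was 1.91 and 1.73 against 2.27 and 3.14, but overlapped on locus sums (2.21 and 2.01 against 2.11 and 2.66).

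Among the cyclins, CycB over CycE was 6.48 and 6.76 in control and 3.06 and 3.50 in tumor. CycA over CycE was 2.28 and 2.20 against 1.09 and 1.36. On locus sums CycA over CycE stayed apart (5.40 and 5.28 against 3.92 and 4.53), but CycB over CycE overlapped (26.7 and 30.4 against 26.9 and 23.2). The ratio of CycB to CycA was close in both genotypes, with 2.85 and 3.07 in control and 2.82 and 2.57 in tumor, and it overlapped on locus sums.

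**Figure D4:**
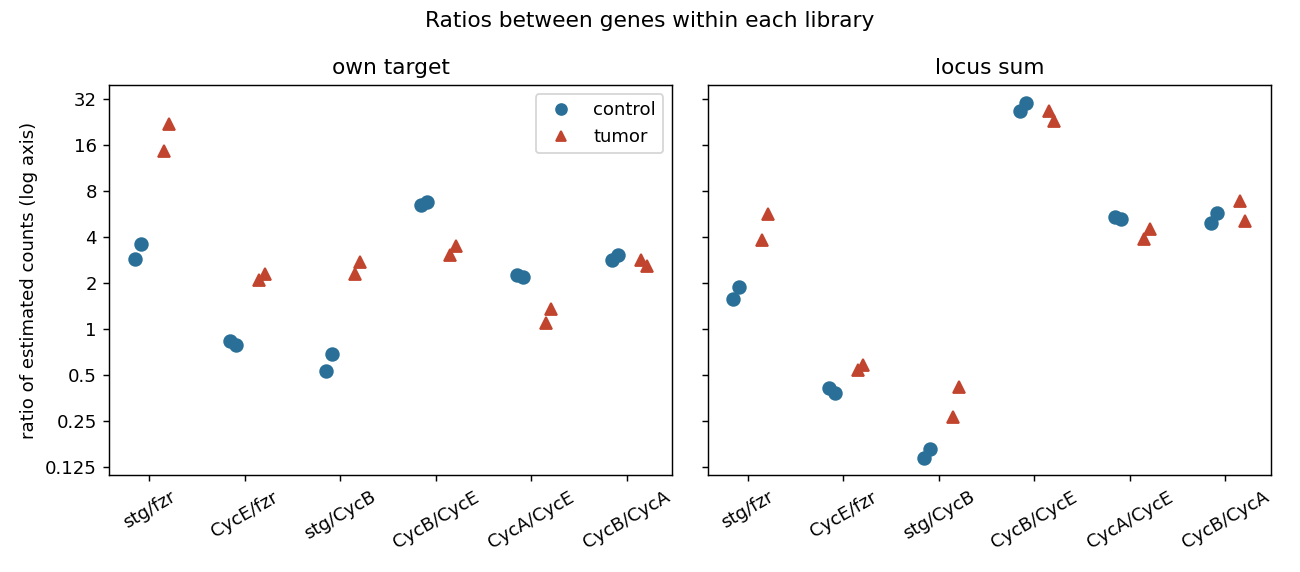
Ratios of estimated counts between pairs of genes within each library on a log axis, for control (circles) and tumor (triangles), on own targets (left) and locus sums (right). stg over fzr is 2.90 and 3.63 in control and 14.6 and 22.1 in tumor on own targets. CycB over CycE overlaps between genotypes on locus sums, where most of the CycB value is counts of its neighbor blw.

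The other genes of the pathway were taken as 7 lists. Over all 7 lists 15 of 100 tested genes rose and 22 fell, beside 23.4% higher and 21.2% lower over all tested genes, so the share that fell was near the background and the share that rose was below it. The balance depends on scaling: on ribosomal protein genes 48.2% of all tested genes were higher and 10% lower, and list counts moved with it. Of the 37 calls 23 had a locus sum past the threshold in the same direction, against 4 in the opposite direction.

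Among regulators of the switch in follicle cells, 4 of 9 tested genes fell and none rose, with the same counts by DESeq2 and limma-voom and none higher at an unadjusted p under 0.05, and the median log2 fold change was -0.39. Under scaling on ribosomal protein genes 3 were higher and 2 lower, with N at -0.18 and Myc at -0.084, and on locus sums 4 were lower and 1 higher (Su(H) at 0.24, edgeR adjusted p = 0.040). The gene peb, for the zinc finger protein Hindsight that Notch induces at the switch, fell from 13224 and 19896 counts to 320 and 264 (-5.88 ± 0.17, edgeR adjusted p = 0.0011). The ligand gene Dl (listed as Delta) fell from 5594 and 6370 to 1061 and 1352 (-2.37 ± 0.18, edgeR adjusted p = 0.0027). The receptor gene N fell by 0.80 ± 0.11 on the log2 scale, and Myc fell by 0.70 ± 0.17, a call lost when control 1, control 2 or tumor 2 was left out (edgeR adjusted p up to 0.13). For all 4 genes that fell the locus sum passed in the same direction. The homeodomain gene ct, which marks mitotic follicle cells, had 13569 and 22571 control counts against 24070 and 19064 and did not pass (edgeR adjusted p = 0.43; chosen after its value was seen).

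Regulators of Cdk1 and checkpoint kinases went both ways. Of 16 tested genes 3 rose and 6 fell, and the median log2 fold change was -0.19. DESeq2 gave 5 higher and 6 lower, and scaling on ribosomal protein genes 7 and 5. The gene trbl, whose product promotes breakdown of the String phosphatase, rose from 1975 and 2451 counts to 7543 and 7151 (1.66 ± 0.07, edgeR adjusted p = 0.0012; locus sum 1.45). The checkpoint kinase gene lok, for Chk2, fell by 1.58 ± 0.16, with a locus sum at -0.91. The Greatwall kinase gene gwl fell by 1.53 ± 0.14, but its locus sum was at -0.10 ± 0.06. Myt1, for a kinase that inhibits Cdk1, had 876 and 774 control counts and was listed at 0 in tumor, while its locus sum was at -0.01 ± 0.10.

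In the anaphase-promoting complex and mitotic exit list 3 of 14 tested genes rose and 4 fell, and the median was -0.14. Locus sums gave 4 higher and 7 lower, and scaling on ribosomal protein genes turned the balance to 8 higher and 1 lower. The subunit gene Cdc23 rose by 0.57 ± 0.08 (locus sum 0.57), a call lost without control 1 or control 2 (edgeR adjusted p up to 0.062). APC4 rose by 0.79 ± 0.14, a call that also ended without either control library (edgeR adjusted p up to 0.073). APC7 fell by 0.98 ± 0.22 while its locus sum rose by 0.46, and its call ended without any single library. The gene vih, for a ubiquitin-conjugating enzyme that serves the complex, had 2194 and 1414 control counts and was listed at 0 in tumor. Its locus sum fell by 0.41.

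Of 12 tested G1-S regulators and E2F targets 2 rose and 3 fell, and the median was -0.28. Under scaling on ribosomal protein genes 5 were higher and none lower (Dp at -0.02, RnrS at 0.0076). E2f1, for the activating E2F factor, rose by 0.53 ± 0.08 (locus sum 0.55), a call lost without control 1 or control 2 (edgeR adjusted p up to 0.072). Its partner gene Dp fell by 0.65 ± 0.08 (locus sum -0.56), a call that ended without control 1 (edgeR adjusted p = 0.051). PCNA, for the replication clamp, rose by 0.88 ± 0.08 on its own target while its locus sum fell by 0.49. RnrS, for the small subunit of ribonucleotide reductase, fell by 0.62 ± 0.17 (edgeR adjusted p = 0.047), which was lost when control 1, control 2 or tumor 1 was left out.

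Of 22 tested spindle, kinetochore and cytokinesis genes 3 rose and none fell (2 lower at an unadjusted p under 0.05, 2 by DESeq2, none by limma-voom), with a median of 0.17. The count higher was 6 by DESeq2, 6 on locus sums, where 3 were lower, and 16 under scaling on ribosomal protein genes. The gene cal1, for the loading factor of the centromeric histone, rose by 1.11 ± 0.12 (edgeR adjusted p = 0.0051; locus sum 1.35). The kinase gene Mps1 and the midzone gene feo rose by 0.53 ± 0.13 and 0.52 ± 0.13, but each call ended when any of 3 libraries was left out (edgeR adjusted p up to 0.12 and 0.13) and neither locus sum passed. Of 12 condensin, cohesin and topoisomerase genes 1 rose and 3 fell, with a median of -0.18, against 6 higher and none lower under scaling on ribosomal protein genes. The cohesin gene vtd rose by 0.77 ± 0.11, while Top2 fell by 0.75 ± 0.12, glu by 0.62 ± 0.16 and Cap-G by 0.32 ± 0.09. The vtd call ended without control 1, and that of Top2 without control 1 or control 2. The glu call ended without control 1, control 2 or tumor 1, and that of Cap-G when any single library was left out. The Cap-G locus sum did not pass.

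Of 15 tested other cyclins and Cdks 3 rose and 2 fell, and the median was -0.03. DESeq2 gave 6 higher and 3 lower, scaling on ribosomal protein genes gave 12 and 1, and no gene was lower when any single library was left out. Eip63E, for a cyclin-dependent kinase, rose by 0.88 ± 0.09 (edgeR adjusted p = 0.0046; locus sum 0.97). CycJ had 0 counts in both control libraries and 1927 and 1618 in the tumor libraries, with a locus sum at 0.20 ± 0.13 (edgeR adjusted p = 0.22). Cdk4, the partner of CycD, fell from 1235 and 1259 counts to 818 and 789 (-0.71 ± 0.17, edgeR adjusted p = 0.032; locus sum -0.59). Cdk5alpha, for the activator of Cdk5, had 44 and 62 counts against 11 and 6, and its locus sum rose by 0.46. The calls of Cdk4 and Cdk5alpha ended when any single library was left out.

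**Figure D5:**
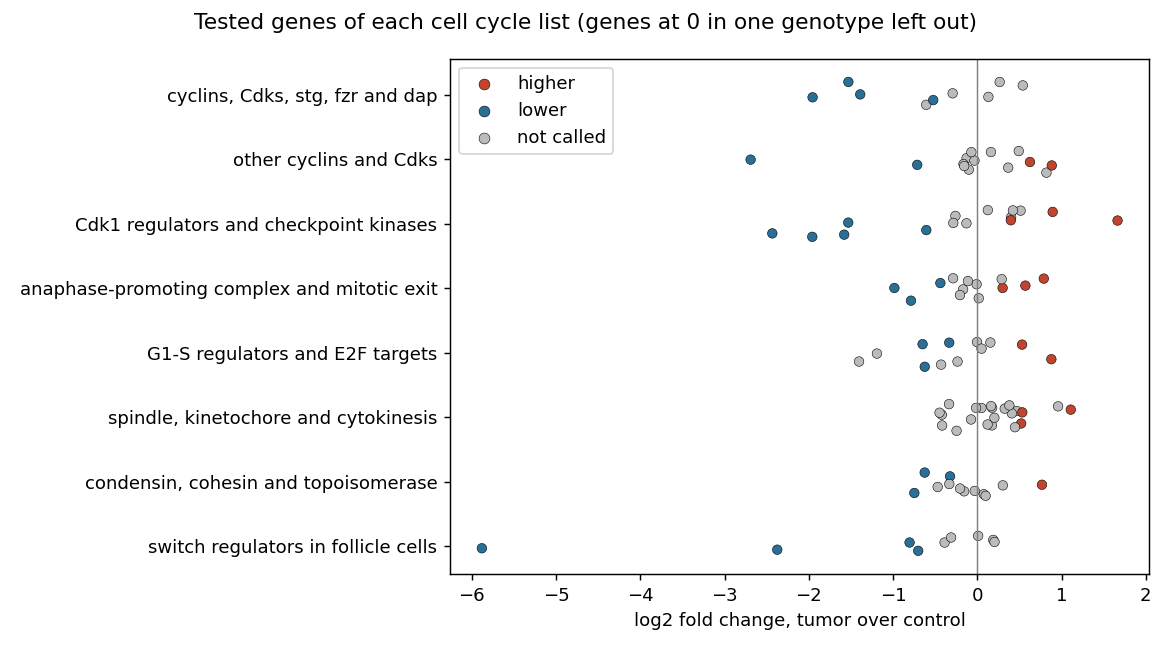
Log2 fold change of tumor over control for the tested genes of each cell cycle list, one point per gene, colored by call (edgeR adjusted p under 0.05), with vertical jitter and without the 3 genes at 0 in one genotype. The cyclins, Cdks, stg, fzr and dap have 4 genes lower and none higher, and peb at -5.88 lies farthest from 0.

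For stg, fzr and dap the genes with the most similar levels over the 4 libraries were sought among 5319 genes averaging 4 or more in log2 CPM, by the root mean square difference of log2 CPM after centering each gene. Nearest to fzr were CG3045 (0.042) and zpg (0.064), a germline innexin gene on the germline marker list that fell by 1.98 on the log2 scale. No exon base of zpg lies outside other targets. On locus sums zpg and fzr lay apart, with log2 fold changes of -3.79 and -1.03. Nearest to stg were CG13599 (0.048) and ND-B22 (0.050), and nearest to dap were CG14711 (0.015) and CG7639 (0.015). With 4 libraries in 2 genotypes this measure mostly reflects the genotype difference.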

How the data were processed

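All 4 libraries were used, and genotype and replicate number came from the sample titles. Reads were quantified with kallisto, per the submitters' processing notes. Its version, strandedness, build and annotation were not given in the sources used here. The authors deposited, per the file headers, an estimated count and a TPM for each gene identifier, with target and effective length, which differ by 50 bases for nearly all targets. All columns of the files were used. Names came from a table that matched 17668 of 17773 identifiers, and coordinates and exons from the Ensembl release 115 annotation of BDGP6.54, which the target lengths fit for 17551 of 17668 genes. The name table held 6 list genes under another symbol.

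After rounding, estimated counts were tested with edgeR 4.0.16 in R 4.3.3 (filterByExpr, TMM, the two-sided glmQLFTest with genotype as its term, Benjamini-Hochberg over 9402 genes, threshold 0.05). Locus sums used the same scaling and genes, with Cdk2 added. The spread has 2 residual degrees of freedom, borrowed across genes, and the biological coefficient of variation was 0.36. Counting error is small for most genes named, and the spread between replicates limits precision. Replicates differed beyond sampling noise (chi-square per degree of freedom 90.9 in control and 131 in tumor). In counts simulated for this comparison, with 200 genes changed, 50 per size, and 9205 genes tested, 42 were recovered where log2 changes were set to -3, 22 for -1, 14 for 1 and 39 for 3, and 4.1% of calls were false. The measured counts gave far more calls, with 2202 genes higher and 1989 lower. Recovery and false calls with that many genes changed were not tested. Alternatives were other scalings, filters and thresholds, DESeq2 1.42.0, limma 3.58.1 with voom or on log2 TPM (pseudocounts 0.1, 1 and 5), a replicate block, leaving out each library, and locus sums.

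The genes followed and the lists were chosen with earlier results of these data known. The rule for named genes took the 10 genes, up to 4 called genes with the smallest adjusted p per list, aPKC, Ras85D and tj, 1 defining gene per marker list and the nearest 2 genes to stg, fzr and dap. Named outside this rule were Fas3, eya, cas, Su(H), ct, the immediate early genes and neighbors of the 10 genes.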

Additional observations from a re-analysis of the deposited data

How the results depend on the processing

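CycA, CycB and fzr were lower and past the threshold under all 18 alternatives of the fit, with edgeR, DESeq2 or limma adjusted p-values of at most 0.047, 0.028 and 0.018. The locus sum is among these alternatives, and for CycA, CycB and fzr it is mostly counts of neighbors, chiefly blw for CycB. CycE was called under 8 of 18. Scaling to ribosomal protein genes moved the median log2 fold change of all tested genes from 0.02 to 0.64, and with it CycE to 0.10, CycB3 to 0.024 and dap to 0.33. With this scaling 2 of the 9 genes were higher, stg and CycD (edgeR adjusted p = 0.020 and 0.013), and over all genes 4531 were higher and 944 lower, so that 82.8% of the calls were higher, against 52.5% under TMM and 66.0% to 66.8% on the TPM scale. DESeq2 gave 1 of the 9 as higher. Cdk1 changed sign on its locus sum (-0.075) and lay between -0.20, without control 1, and 0.55, without control 2, when single libraries were left out. When each library was left out in turn, 0 to 1 of the 9 genes were higher and 3 lower, and over all genes 1095 to 1495 were higher and 760 to 1507 lower. At a threshold of 0.01, 992 genes were higher and 851 lower. A fit with a replicate block gave 1533 higher and 1305 lower and ended the CycE call (edgeR adjusted p = 0.078). Deviations of same-numbered libraries correlated at -0.01, and the labels give no pairing. The cause of these changes was not tested. Of 266 counts of calls in the 7 lists under the alternatives, 172 stayed within 1.5 times the reported count.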
